A study of Homo sapiens with 4 samples.

Results

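In 269 of the 3044 windows of 1 Mb into which chromosomes 1 to 22 and X of hg38 were cut, MTF-1 peaks of MDA-MB-231 cells were lost in cadmium and none was gained. A lost peak is a peak of the control list that shares no base with any peak of the cadmium list, and a gained peak is the reverse. Windows were kept when 6 or more lost peaks and 0 gained peaks had their centre inside, which 8.84% of all windows met. The 2944 lost peaks of these windows, called members here, were 15.2% of the 19362 lost peaks on these chromosomes. Their presence and absence in the lists chose them, so the counts of lost and gained peaks are given as a description and are not tested.

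The cells were MDA-MB-231, an established line from a human breast cancer, and the labels name no added transgene or deletion. Control cells were passaged in normal medium, and cadmium cells were selected by serial passaging in cadmium sulfate and kept at 10 µM. CUT&RUN uses an antibody, here against MTF-1, to direct a nuclease to bound sites, and the DNA that is cut free is sequenced. The authors made 2 libraries for each condition and merged them before calling peaks, so each condition is 1 list of intervals with no read count, no known depth and no spread between replicates.

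Metal regulatory transcription factor 1 (MTF-1) is a zinc finger protein that enters the nucleus when zinc or cadmium rises. With excess zinc it binds metal response elements, whereas the study cites reports that with cadmium it did not use the consensus element. MTF-1 is best known for switching on metallothionein genes, whose products bind metals, and zinc exporters of the SLC30A family. AP-1 is the dimer of FOS and JUN family proteins, and forkhead (FOX) proteins are a family of factors, several of which can bind closed chromatin.

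The sequences below come from members in the 5 windows with most lost peaks, and show the strings that the sequence comparisons further on count. Each is 100 bases of the plus strand of hg38 (GRCh38), written 5′ to 3′, around a match near the centre of the member with most forkhead strings in its window. Capitals mark the forkhead string NTAAANA, with G or A as its first base and C or T as its sixth, or its reverse complement.
chr1:122503396-122503495, no gene: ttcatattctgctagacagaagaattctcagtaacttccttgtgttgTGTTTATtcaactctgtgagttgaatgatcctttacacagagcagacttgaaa
chr14:54041092-54041191, no gene: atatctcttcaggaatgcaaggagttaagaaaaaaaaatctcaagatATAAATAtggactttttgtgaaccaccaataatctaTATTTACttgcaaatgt
chr14:51078752-51078851, intron of TRIM9: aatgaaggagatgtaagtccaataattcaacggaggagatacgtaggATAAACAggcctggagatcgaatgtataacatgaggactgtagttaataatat
chr11:73881018-73881117, intron of PAAF1: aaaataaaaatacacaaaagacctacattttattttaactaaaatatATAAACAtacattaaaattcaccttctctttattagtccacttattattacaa
chr11:118840358-118840457, no gene: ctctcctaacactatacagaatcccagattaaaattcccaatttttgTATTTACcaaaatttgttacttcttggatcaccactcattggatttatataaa

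The last of these members, chr11:118838201-118842599, was 4399 bp wide and held 11 forkhead strings in the 500 bp around its centre. The AP-1 strings TGACTCA and TGAGTCA were searched in the same way, and 4 of the 2944 members held 3 of them. The member among these on chromosome 4 is shown with the AP-1 strings in capitals, and carried all 3 in a row, each 1 base from the next.
chr4:80393408-80393507, intron of CFAP299: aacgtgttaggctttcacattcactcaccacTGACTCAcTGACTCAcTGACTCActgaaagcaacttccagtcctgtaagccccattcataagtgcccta

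Over both lists, 27.9% of 69283 control peaks were lost and 15.1% of 60121 cadmium peaks were gained. The control list covered 130.4 Mb and the cadmium list 90.9 Mb, so the cadmium list was the shorter over the whole genome, and the depth behind either list is not known. In the 269 windows, 2944 of 6402 control peaks were lost, a share of 46.0% that the rule favours. The same share was 28.4% in the 1124 windows with 6 or more lost and 1 or more gained peaks, called mixed windows here, which held 13108 lost peaks. Only 24 windows showed the opposite pattern, with 6 or more gained and 0 lost peaks. The 269 windows also held fewer peaks to begin with. Their control peaks ranged from 6 to 70 a window with a median of 21, against a median of 38 in the mixed windows, and the part of this lower number in the absence of gained peaks was not tested.

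Lost peaks per window ranged from 6 to 45 with a median of 9. The share of a window's control peaks that was lost ranged from 18.2% to 100%, with a median of 50%. At the edge of the rule, 46 windows had exactly 6 lost and 0 gained peaks, among them chr3:138000001-139000000 around PIK3CB and FOXL2, where 6 of 27 control peaks were lost. Another 40 windows had 5 lost and 0 gained peaks and fell just outside, such as chr7:112000001-113000000 around DOCK4, with 5 of 26 lost. A further 241 windows had 6 or more lost peaks but 1 gained peak. Of these, chr6:42000001-43000000 around CCND3 lost 34 of 84 control peaks, a number that only 3 of the 269 windows reached.

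Chromosome 4 stood out in the distribution of windows over chromosomes. It held 44 of the 269 windows, which were 23.0% of its own windows, and 435 members. Of its control peaks 39.0% were lost and of its cadmium peaks 10.4% were gained. Chromosome 7 followed with 25 windows (15.6%) and chromosome 11 with 21 windows (15.4%) that held 319 members. At the other end, chromosome 18 had no such window among 81. It held only 1038 control peaks over these 81 windows, against 69283 over all 3044 windows. Of its control peaks 266 (25.6%) were lost, and of its cadmium peaks 18.5% were gained. Chromosome 16 had 2 among 91, and there 14.6% of control peaks were lost and 23.2% of cadmium peaks gained.

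**Figure D1:**
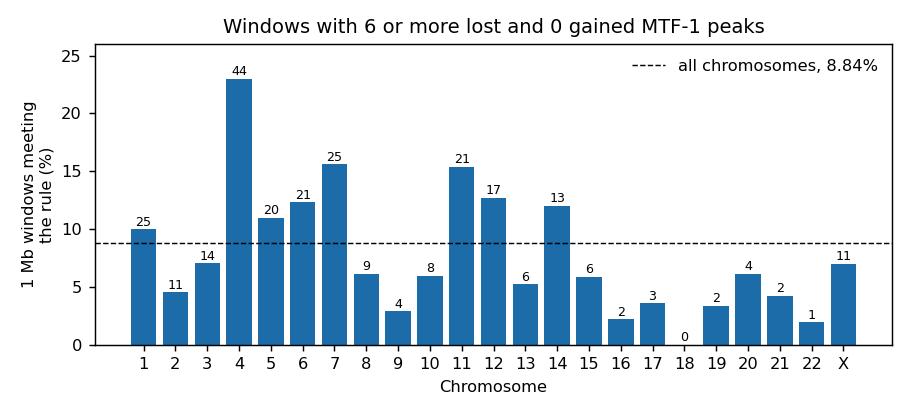
Share of the 1 Mb windows of each chromosome (x axis) that held 6 or more lost and 0 gained MTF-1 peaks (y axis, percent); the number on each bar is the number of windows and the dashed line the share over all chromosomes, 8.84%. Chromosome 4 reached 23.0% and chromosome 18 had none.

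Most windows stood alone, and 85 of the 269 adjoined another. The number that adjoined was 54 of 190 windows with a minimum of 8 lost peaks and 131 of 313 with only peaks of at least 1000 bp. It was 153 of 449 with windows of 500 kb and 108 of 258 with the grid shifted by 500 kb. The 85 formed 37 runs, of which 28 were of 2 windows, 7 of 3 windows and 2 of 4 windows, and held 1037 members (35.2%). Of the 537 sides of the 269 windows, 96 (17.9%) faced another such window and 204 (38.0%) a mixed window. Another 127 (23.6%) faced a window with under 6 lost and 1 or more gained peaks, and 110 (20.5%) a window with under 6 lost and 0 gained peaks. For comparison, 269 (8.84%) of all 3044 windows met the rule and 1124 of the 3044 were mixed. The shares of sides were not tested. Adjoining windows lost 48.9% of their control peaks and windows that stood alone 44.5%.

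The runs of 4 windows were on chromosomes 7 and 11, and of the 7 runs of 3 windows the run with most lost peaks was on chromosome 14. The run chr7:16000001-20000000 lost 59 of 101 control peaks, with 19, 10, 16 and 14 lost in its successive windows. It held the starts of 17 protein-coding genes, among them AGR2, a protein disulfide isomerase of secretory cells, AHR, the aryl hydrocarbon receptor that senses xenobiotics, HDAC9, a histone deacetylase, and TWIST1, a transcription factor of epithelial-mesenchymal transition. This run lay in a stretch of 11.4 Mb, chr7:8932600-20306400, that held 107 lost peaks and no gained peak and took in a further run of 2 windows around ETV1.

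The run chr11:105000001-109000000 lost 49 of 92 control peaks, with 11, 16, 7 and 15 lost in its windows. CASP1, the caspase that matures interleukin-1 beta, its inhibitor CARD16 and GRIA4, an AMPA receptor subunit, start in it. Its gain-free stretch measured 7.12 Mb and held 75 lost peaks. The run chr14:50000001-53000000, of 3 windows, lost 71 of 153 control peaks, with 23, 34 and 14 lost. FRMD6, GNG2, TRIM9 and PYGL, the liver form of glycogen phosphorylase, start in this run.

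The window with most lost peaks, chr1:122000001-123000000, lost 45 of 70 control peaks and held no protein-coding start. It lies at the centromere, and 42 of its 45 members consisted of tandem repeats, here defined as at least 40% of bases equal to the base that lies 1 alpha satellite unit further on. In all, 73 members (2.48%) met this definition, against 1.49% of all lost peaks, and they made up at least 50% of members in 3 windows, on chromosomes 1, 13 and 19. Short reads do not place well in such repeats, so positions there are uncertain. The other 266 windows held 2875 members.

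The next 4 windows held 60 to 70 control peaks each. In chr14:54000001-55000000 around SAMD4A, an RNA-binding translational repressor, 35 of 70 control peaks were lost. In chr14:51000001-52000000 around FRMD6, a FERM domain protein linked to the Hippo pathway, 34 of 60 were lost. The window chr11:73000001-74000000, with FAM168A, ARHGEF17 and the nucleotide receptors P2RY2 and P2RY6, lost 30 of 62. The window chr11:118000001-119000000, with PHLDB1, CXCR5 and the T-cell receptor subunits CD3E, CD3D and CD3G, lost 29 of 68.

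The window around FOXA2, chr20:22000001-23000000, ranked next and was named after its values were seen. FOXA2, a forkhead pioneer factor of endoderm, is the only protein-coding gene that starts in this window. Of its 52 control peaks 29 were lost, and the lost peaks lay from 238.5 to -413.6 kb of the FOXA2 start, negative values being upstream, with widths of 399 to 5399 bp. Of its 23 shared sites, 21 were shorter in cadmium. The broad site over the gene itself, chr20:22574601-22587799, went from 13199 bp in control to 4997 bp in cadmium.

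Where the windows kept MTF-1 sites, the sites were shorter. Shared sites are the merged intervals of control and cadmium peaks that overlap, and the length covered by each list was compared at each. The 269 windows held 3421 shared sites, of which 2428 were covered over a smaller length in cadmium (71.0%, 95% Wilson interval 69.4 to 72.5%, counting error only). Another 378 (11.0%) were wider and 615 (18.0%) were equal. Over all 48618 shared sites 58.0% were shorter, and in the mixed windows 60.9% of 32003. Shrinkage is read from the same 2 lists that chose the windows, so it is described beside these values and not tested.

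In bases, the shared sites of the 269 windows went from 6.65 Mb in control to 4.18 Mb in cadmium, which is 0.629 cadmium bases per control base. The ratio was 0.773 in the mixed windows and 0.788 over all shared sites. The median site measured 1399 bp in control and 799 bp in cadmium. At 1179 sites (34.5%) cadmium covered at most 50% of the control length, against 22.7% of all shared sites.

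Sites were also classed by their control width. Shortening is measured against that same width, in bins of 200 bp, so a narrow site can hardly shorten and a rise over the classes is in part built in. Sites under 1000 bp in control were shorter in cadmium in 45.9% of 1317 cases, those from 1000 to under 2000 bp in 81.0% of 969, those from 2000 to under 4000 bp in 90.3% of 846 and those of 4000 bp or more in 94.8% of 289. In the mixed windows the shares for the same classes were 33.5%, 64.3%, 76.0% and 83.8%, lower in each class. The kinds of window were set by gained peaks of the same lists, so these differences are described and were not tested.

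By window, 227 of the 269 held 5 or more shared sites, and in 224 of these the cadmium length was below the control length. Their ratio had a median of 0.672, and the middle 50% of windows lay from 0.577 to 0.758. The lowest ratio, 0.341, belonged to chr11:73000001-74000000, where 141768 bp in control became 48366 bp in cadmium. The highest, 1.26, belonged to chr13:76000001-77000000 around KCTD12, where 18181 bp became 22982 bp although 10 of its 29 control peaks were lost. Of 1105 mixed windows with 5 or more shared sites, 1009 were below 1 and the median was 0.770.

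**Figure D2:**
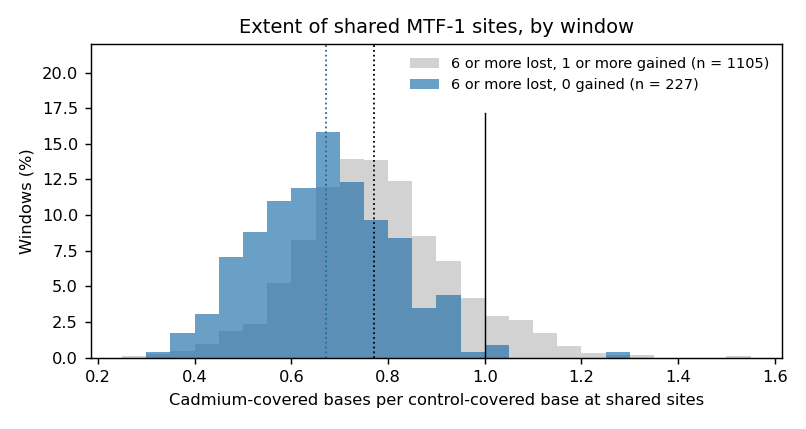
Cadmium-covered bases per control-covered base at the shared sites of a window (x axis) against the share of windows (y axis, percent), for the 227 windows with only lost peaks (blue) and the 1105 mixed windows (grey) that held 5 or more shared sites; dotted lines mark the medians, 0.672 and 0.770, and the solid line equal lengths. The distributions overlap widely, and 3 of the 227 windows lie above 1.

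In 4 windows no shared site was left, because every control peak was lost. These were chr4:162000001-163000000 with 6 peaks, chr5:30000001-31000000 with 9, chr12:17000001-18000000 with 8 and chr22:10000001-11000000 with 6. FSTL5 was the only protein-coding gene to start in any of them, in the first, and 2 of the 6 peaks there lay in its span. From the first base of chromosome 22 to base 11066200 there were 8 lost peaks and no gained peak. How well reads place in that part was not tested. Adjoining windows kept 0.569 cadmium bases per control base at shared sites and windows that stood alone 0.658, with 75.7% and 68.8% of sites shorter.

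Windows were also split by the number of protein-coding genes that start inside, from GENCODE 44. The 29 windows with none lost 58.5% of 496 control peaks, those with 1 to 5 lost 47.4% of 3739 and the 69 with over 5 lost 40.7% of 2167. The share of shorter shared sites ran the other way, at 59.8%, 71.0% and 72.7%. Every window had to reach the same minimum of lost peaks, so a window with few control peaks must show a high lost share. Control peaks per window rose over these classes, so the fall in the lost share is in part built in and was not tested.

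Members were narrow and far from transcript starts. Their width had a median of 799 bp with quartiles of 399 and 1399 bp, against a median of 999 bp for all lost peaks. The median distance from a member's centre to the nearest transcript start of any gene was 14982 bp, against 8669.5 bp for the lost peaks of mixed windows. Introns held 1678 members (57.0%), 1074 (36.5%) were intergenic, and non-coding exons, UTRs and coding exons held 95, 57 and 40. Of the members, 989 (33.6%) lay within 10 kb of another member. Among the lost peaks of mixed windows 29.8% lay that close to another of their kind, and among all lost peaks 27.3%.

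The 5 widest members measured 6999 to 10799 bp. The widest, chr21:10648201-10658999, and another of 6999 bp lay in the same pericentromeric part of chromosome 21, and chr19:27345801-27353199 lay in a window of tandem repeats. The others were chr11:102286401-102295399 of 8999 bp, in the window that holds YAP1 and BIRC3, and chr11:78246801-78254399 of 7599 bp in an intron of GAB2, an adaptor protein of receptor tyrosine kinase signalling.

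Members at transcript starts were few. A transcript start of any gene lay within 1 kb of 252 members (8.56%), against 11.6% of the lost peaks of mixed windows and 11.0% of all lost peaks. Within 1 kb of a transcript start of a protein-coding gene lay 152 members (5.16%), at 136 genes. The widest of them, chr16:65119801-65124399, was centred 7.50 bp from a start of CDH11, a mesenchymal cadherin, and measured 4599 bp. Members of 4399 bp at PHLDB1, 4199 bp at each of ARHGEF17, TSPAN9 and GNG2, 3799 bp at PLEKHB1 and 3599 bp at each of STC2 and ATP10A followed. The transcript starts counted can lie inside a gene, and the GNG2 member lay 33.3 kb downstream of the annotated gene start. STC2 encodes stanniocalcin 2, a secreted glycoprotein of calcium and phosphate handling.

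Of 19970 protein-coding genes on these chromosomes, 549 had a member in their span, which is 2.75%. TMEM132D, a membrane protein of the nervous system, had most, with 18 members among 35 control peaks, and the peaks over its span fell from 44165 bp in control to 12183 bp in cadmium. HDAC9 followed with 16 of 23 and a fall from 26829 to 5194 bp. SHROOM3, which shapes the apical actin network of epithelia, had 13 of 31 and FRMD6 11 of 20.

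Other genes among the 20 with most members had 8 to 11 each. ARHGAP42 and ARHGAP24, which are GTPase-activating proteins, had 11 and 9 members, and PDE10A and PDE4D, which degrade cyclic nucleotides, had 11 and 9. CHRM3, a muscarinic acetylcholine receptor, lost 10 of its 11 control peaks and went from 12989 to 799 bp. GNG2, a G protein gamma subunit, lost 8 of 11 and went from 16132 to 1997 bp. MAML2, a Notch coactivator, had 10 members and MICAL2, an actin-oxidising enzyme, 8. The genes CFAP299, SAMD4A, ABCA13, ATXN1, NEBL and MORC4, had 8 to 10 members each.

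All 20 genes had fewer bases under peaks in cadmium, with ratios from 0.0615 for CHRM3 to 0.603 for ATXN1 and NEBL. Of the 20, 19 had no gained peak in their span, PDE4D being the exception with 1. The genes were ranked by lost peaks in windows chosen for having no gained peak, so both features are in large part built in. A control peak lay within 1 kb of a transcript start of each of the 20, and a cadmium peak did so for 16. The others were TMEM132D, CHRM3, ABCA13 and GNG2. Such a start can lie inside the gene, away from the annotated gene start. In the span of CHRM3 the peak nearest the annotated start lay 41.6 kb downstream. GNG2 kept a site 2.1 kb downstream of its annotated start, of 999 bp in cadmium. The spans of the 20 genes held 202 shared sites, of which 154 were shorter and 26 wider in cadmium. The ratio of bases at shared sites alone was 0.484 for TMEM132D, 0.508 for HDAC9 and 0.949 for NEBL.

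**Figure D3:**
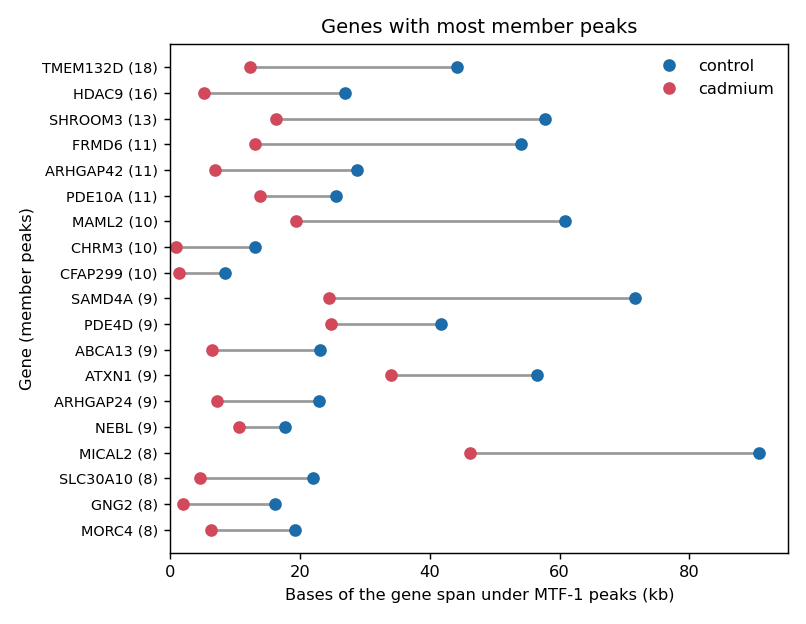
Bases of each gene's span that lay under MTF-1 peaks (x axis, kb) in control (blue) and cadmium (red) for 19 of the 20 protein-coding genes with most members (y axis, number of members in brackets). Each gene has fewer covered bases in cadmium, from 90773 to 46180 bp at MICAL2 to 12989 to 799 bp at CHRM3. The genes were ranked by their lost peaks, so a fall is in large part built in.

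Along HDAC9 the members were spread from 92.4 to 907.4 kb downstream of the annotated start, with widths of 399 to 3399 bp. The site at the start itself stayed in both lists and went from 2399 to 799 bp. Of the other 6 shared sites of the gene, 5 were also shorter in cadmium, such as the site 580.2 kb downstream that went from 1799 to 399 bp, and the site 779.6 kb downstream was wider, at 599 bp in control and 999 bp in cadmium.

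SLC30A10, a manganese exporter of the SLC30A family and thus a gene of metal handling, had 8 members among 13 control peaks. The members lay in 2 groups, 5 of them 152.3 to 170.9 kb and 3 of them 248.6 to 259.4 kb downstream of the annotated start, and measured 599 to 3599 bp. Its 5 shared sites went from 3799 to 1599 bp, 2399 to 399 bp, 1799 to 799 bp, 399 to 1199 bp and 399 to 599 bp, so 3 were shorter and 2 wider. Peak bases over its span fell from 21987 to 4595.

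The gene lists stand beside the 2.75% of all protein-coding genes that had a member. Of the 10 SLC30A genes, SLC30A10 and SLC30A8, the zinc transporter of insulin granules with 1 member, had a member (20%). None of the 11 metallothionein genes, 14 SLC39A metal importers, 54 forkhead genes or 18 AP-1 list genes had a member in its span. The AP-1 list was set by FOS, JUN, ATF and BATF symbols, so it is wider than the FOS and JUN families. Of the forkhead genes, 4 start in the windows. With so few genes in a list, 0 is near the share over all genes. A further 6 of 515 ZNF genes (1.17%), 3 of 416 olfactory receptor genes (0.721%), 4 of 93 cadherin genes (4.30%) and 3 of 46 glutamate and GABA receptor genes (6.52%) had a member. Genes whose symbols begin with KCN, SCN or CACN, not all of them voltage-gated channels, stood at 10 of 136 (7.35%). Among these KCNH7, a neuronal potassium channel, lost all 8 of its control peaks. Of 20 contactin, neurexin and neuroligin genes only CNTNAP2 had members, 3 of them.

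Of 322 genes that span over 500 kb, 49 (15.2%) had a member against 2.75% of all protein-coding genes, and their median span was 728 kb against 27.5 kb for all protein-coding genes, while the metallothionein genes had a median span of 1.42 kb. The 10 SLC30A genes, 2 of them with a member, had a median span of 50.8 kb. The 20 contactin, neurexin and neuroligin genes, 1 of them with a member, had a median span of 332 kb. The part of length in the list shares was not tested. Among the long genes, CALN1, a calcium-binding protein of neurons, lost all 7 of its control peaks, and SEMA3A, a secreted guidance cue, lost 8 of 14.

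Base composition and position were not part of the rule and were compared with the mixed windows. The chosen windows also held fewer control peaks, a median of 21 against 38, so the comparison is not independent of that difference. Windows with only lost peaks were poorer in G and C, at a mean of 38.7% against 43.4%, a difference of -4.68 percentage points (95% interval -5.50 to -3.85, adjusted p = 1.91e-28, n = 269 and 1124 windows). They held 4.16 protein-coding starts each against 10.6, a difference of -6.44 (-8.29 to -4.60, adjusted p = 7.29e-12, n = 269 and 1124). These are linear regressions over windows with errors clustered on the chromosome, two-sided and adjusted by the Benjamini-Hochberg method over the 2 measures. With the number of control peaks in the window as a covariate the differences were -2.01 points and -1.64 starts (adjusted p = 3.97e-13 and 2.83e-04, n = 269 and 1124).

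Members differed from the lost peaks of mixed windows in the same direction. The 500 bp around their centres had a mean GC content of 41.5% against 45.6% (difference -4.07 points, -4.62 to -3.53, adjusted p = 4.77e-47, n = 2944 and 13108 peaks). Fewer members lay within 3 kb of a transcript start, 17.9% against 24.7% (odds ratio 0.663, 0.572 to 0.769, adjusted p = 7.27e-08, n = 2944 and 13108). Fewer lay inside a gene, 63.5% against 69.4% (odds ratio 0.766, 0.639 to 0.918, adjusted p = 0.00396, n = 2944 and 13108). With GC content as a covariate the odds ratio was 0.829 for a start within 3 kb (0.720 to 0.955, adjusted p = 0.0243, n = 2944 and 13108). It was 0.784 for lying inside a gene (0.651 to 0.943, adjusted p = 0.0243, n = 2944 and 13108). These and the string tests are regressions over peaks with errors clustered on the 1393 windows, two-sided and adjusted over 6 features. Where GC content was the covariate it was left out of the features tested. None of these regressions had the number of control peaks in the window as a covariate, so its part in the differences between peaks was not tested. The p-values describe these 2 lists and not replicates of the conditions.

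Forkhead strings occurred in 1385 members (47.0%, Wilson interval 45.2 to 48.9%) and in 38.6% of the lost peaks of mixed windows, an odds ratio of 1.41 (95% interval 1.27 to 1.56, adjusted p = 2.33e-10, n = 2944 and 13108). Of the shared sites of the same windows, searched over the same 500 bp, 35.2% held such a string, over all 48618 shared sites 26.7% and over all 9074 gained peaks 25.5%. These strings consist mostly of A and T, and with GC content as a covariate the odds ratio was 0.999 (0.895 to 1.12, adjusted p = 0.989, n = 2944 and 13108). In peaks of 30 to 35% GC, 67.2% of members and 67.0% of the compared peaks held the string, and in peaks of 35 to 40% GC 55.8% and 55.6% did. From 40 to 45% the shares were 41.4% and 44.6%.

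AP-1 strings occurred in 783 members (26.6%) and in 22.6% of the compared peaks, an odds ratio of 1.24 (1.10 to 1.39, adjusted p = 3.50e-04, n = 2944 and 13108). This difference did not pass with GC content as a covariate (odds ratio 1.06, adjusted p = 0.524) or with peak width as a covariate (1.11, adjusted p = 0.0640, n = 2944 and 13108). The share was 28.1% at the shared sites of the same windows, 23.5% over all shared sites and 32.6% over gained peaks. Both an AP-1 and a forkhead string occurred in 381 members (12.9%), and neither in 1157 (39.3%).

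The core of the metal response element, searched as TGCACNC and TGCGCNC, occurred in 713 members (24.2%) and in 30.7% of the compared peaks. This gave an odds ratio of 0.721 (0.649 to 0.801, adjusted p = 2.20e-09, n = 2944 and 13108), which was 0.958 with GC content as a covariate (adjusted p = 0.524). The share was 28.5% at the shared sites of the same windows and 36.5% over all shared sites. All strings were searched on both strands, and a match is a match of letters and not a measured binding site.

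**Figure D4:**
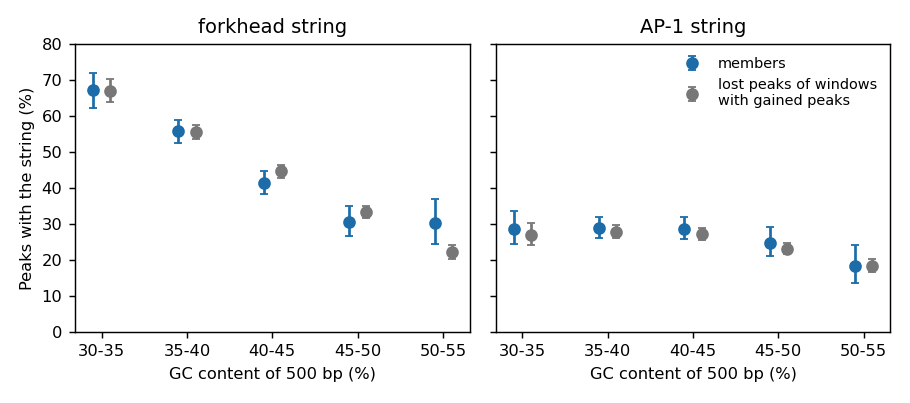
Share of peaks (y axis, percent, with 95% Wilson intervals) that held a forkhead string (left) or an AP-1 string (right) in 500 bp, by the GC content of those 500 bp (x axis, percent), for members (blue) and lost peaks of mixed windows (grey). Forkhead shares run from 67.2% of members at 30 to 35% GC to 30.2% at 50 to 55%, and the pairs of points lie close together except in the last forkhead band, 30.2% against 22.1%.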

How the data were processed

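MTF-1 CUT&RUN gave 2 libraries from control and 2 from cadmium MDA-MB-231 cells. Reads were aligned with Bowtie2 (hg38) by the authors, who then pooled the libraries of each condition and called broad peaks with default parameters. The submitters' processing notes name SICER 0.0.50 and SAMtools 1.8, whereas the study's methods name Epic2 as the caller. The deposited files give a chromosome, start and end for each peak, in base pairs, and a score that is the same in every row and was not used. Depth per library is not given in these lists, so intervals cover counting error only.

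Peaks on chromosomes Y and M were left out (16 control, 9 cadmium). Each peak was put in a window of 1000000 bp by its centre. Starts and spans came from GENCODE 44, with 218307 distinct transcript starts, and sequence from the matching genome by pysam 0.24.0. Strings were counted in 500 bp around the centre. Features were compared by logistic or linear regression with cluster-robust errors in statsmodels 0.14.6, with Benjamini-Hochberg adjustment and a threshold of 0.05, and Wilson intervals came from scipy 1.17.1. The steps were tested on simulated data.

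Named windows were the 5 with most lost peaks, the 3 longest runs (ties by lost peaks), and windows at the edges of the rule. Named genes were the 20 with most members (ties by member bases), those at the 15 widest members near a start, genes starting in named windows, and members of gene lists set by symbol. Of these, 1 gene and 1 sequence are not reported here. Windows and genes outside this were named after their values were seen: the FOXA2 window, the windows with no shared site, those with the lowest and highest ratio, and YAP1, BIRC3 and ETV1. Windows, members, lists and tests were chosen with earlier results of these data known. As a check of the cell line, a peak lay within 1 kb of a start of VIM and of CD44 in both lists, and no peak lay in CDKN2A, which this line has lost. Alternatives were other grids, minimum counts, definitions of a unique peak, peak widths, covariates and clusters, and windows left out.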

Additional observations from a re-analysis of the deposited data

How the results depend on the processing

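No paired analysis was possible because the libraries of each condition were merged before peaks were called, and for the same reason no library could be left out. Of 99 pairs of a result and an alternative, 81 kept their direction and their side of the threshold or, without a test, stayed within 1.5 times for a count and within the main value's 95% counting interval for a share or a ratio of bases, which is narrow for bases. Against 269 windows, 85 of them adjoining, windows of 500 kb gave 449 and 153, a minimum of 8 lost peaks gave 190 and 54, and peaks of at least 1000 bp gave 313 and 131. The share of shorter shared sites (71.0%) was 74.8% for unmerged control peaks, 84.3% for sites of at least 1000 bp in control and 75.7% in adjoining windows alone. Cadmium bases per control base (0.629) were 0.587, 0.595 and 0.569 under these settings, 0.620 with the grid shifted by 500 kb, 0.619 with a minimum of 8 lost peaks, 0.628 without chromosome 4 and 0.628 without the 3 windows of tandem repeats, the last an alternative added after seeing the data. With GC content as a covariate the forkhead odds ratio was 0.999 against 1.41, that of AP-1 1.06 against 1.24 and that of the metal response element core 0.958 against 0.721, and none passed. With peak width as a covariate AP-1 was 1.11 and did not pass. With 1 list per condition and no depth, neither replicate error nor a difference in depth could be measured.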

Other observations

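AP-1 strings of members lay toward the peak centre. Per 1000 members and 50 bp there were 39.7 strings in the central 200 bp and 22.7 in the flanking 300 bp, a ratio of 1.75, and the ratio in the lost peaks of mixed windows was 1.73. Forkhead strings were spread more evenly, with a ratio of 1.08 in members and 1.12 in the compared peaks, and the metal response element core had 1.06 and 0.978. These ratios were not tested.

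Some stretches without a gained peak extended far beyond the windows. The window around PLS3 on chromosome X lay in one of 8.71 Mb with 27 lost peaks, and the run of 3 windows around CAV1 and WNT2 on chromosome 7 in one of 9.11 Mb with 58 lost peaks. These windows were named after their values were seen.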
